A study of Homo sapiens with 6 samples.

Results

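Short topologically associated domains (TADs) of LNCaP cells were followed from the control TAD list into the list called after CTCF depletion. The members were the autosomal control TADs whose end minus start was at most 400 kb, and they numbered 521 of 2763 autosomal control TADs, or 18.9% (Wilson 95% interval 17.4 to 20.4%). The whole control list held 2864 TADs. LNCaP is an established human prostate cancer cell line. The control group (control siRNA) received a pool of non-targeting siRNAs and the depleted group (CTCF siRNA) a pool directed against CTCF, both at 20 nM and collected at 144 h. Hi-C, which ligates BglII fragments that lie close together in cross-linked nuclei and sequences the joined ends, was performed on 2 control siRNA and 4 CTCF siRNA libraries. The CTCF siRNA libraries were numbered 1, 2, 1.1 and 2.1, so that 2 of them may be further libraries of replicates 1 and 2 rather than separate cultures. The libraries of a condition had been pooled into 1 contact map and 1 TAD list, so no difference below could be set against the spread between replicates, no p-value was computed, and intervals cover counting or the spread over positions only. The level of CTCF that remained in the transfected cells is not measured by these maps.

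A TAD is a stretch of chromosome whose parts contact each other more often than they contact the DNA on either side. CTCF is a zinc finger protein that binds a directional DNA motif and halts cohesin, the ring complex that extrudes chromatin loops, and pairs of motifs that point towards each other often flank a loop or a domain. Where the separation between neighbouring TADs weakens, a domain caller may no longer place an edge there, and a short TAD may then be found within a larger one.

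Contacts within chromosomes numbered 13665315 in the control map and 56304198, or 4.12 times as many, in the CTCF siRNA map. The difference in contacts between the 2 maps also moved with GC content, as given below. Most contact medians and the named TADs are therefore given with iteratively balanced counts as well, which scale each bin to the same total. Contacts could be measured for 441 of the 521 short TADs. Of the others, 21 had no adjoining TAD within 100 kb and 59 had too few usable bins or expected contacts. A measured short TAD had a median of 594 contacts within it and 326 with its neighbours in the control map, and 2507 and 1898 in the CTCF siRNA map.

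The deposited edges all lay at the middle of a 40 kb bin. Over all autosomal control TADs, contacts across a cut placed 20 kb to the left of the deposited edge were 0.722 of those expected in the control map, 20 kb to the right 0.579, and 60 kb to the right 0.717. The lowest value was thus 20 kb to the right, and it lay there for the CTCF siRNA list in its own map too, at 0.738 against 0.858 and 0.864 on either side. Edges were therefore placed 20 kb to the right of the deposited positions for contacts, genes and sequence, a choice made after the maps were seen. Coordinates of TADs are given as deposited, on hg19 (GRCh37).

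Sequence was not used to choose the TADs. Matches to the CTCF core motif, written as CCANNAG followed directly by GGGGC or by ATGGC and searched on both strands, lay within the 40 kb window centred on an edge for 284 of 1042 edges of short TADs, or 27.3% (Wilson 95% interval 24.6 to 30.0%). The share was 23.6% at the 4484 edges of longer TADs (22.4 to 24.8%) and 15.03% in all 59714 windows of that length at usable positions (14.7 to 15.3%). An edge that adjoining TADs share was counted once for each of them. The matches below come from edges of the named short TADs described further on and are shown because they include both strands. Each is read 5′ to 3′ on the strand of the match, with 20 bases on either side and the match in capitals. A match describes the letters and does not show that CTCF was bound.

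GUCY1A1 TAD, absorbed, left edge, chr4:156325198-156325249, plus strand: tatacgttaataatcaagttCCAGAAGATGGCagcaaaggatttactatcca
KIF14 TAD, absorbed, left edge, chr1:200518303-200518354, minus strand: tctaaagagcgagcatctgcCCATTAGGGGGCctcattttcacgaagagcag
BCL10 TAD, kept, right edge, chr1:85773964-85774015, plus strand: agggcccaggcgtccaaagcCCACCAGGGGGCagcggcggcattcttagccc
MCTP2 TAD, kept, left edge, chr15:94663323-94663374, minus strand: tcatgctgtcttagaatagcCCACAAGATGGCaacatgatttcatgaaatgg
PRDM15 TAD, kept, right edge, chr21:43565770-43565821, plus strand: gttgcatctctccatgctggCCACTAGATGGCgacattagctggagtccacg
EMX1 TAD, kept, right edge, chr2:73477077-73477128, minus strand: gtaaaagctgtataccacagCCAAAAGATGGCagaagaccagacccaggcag

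The strand of the matches changed across an edge. In the 40 kb step centred 40 kb to the left of an edge, short TADs had 17.2 minus-strand and 9.40 plus-strand matches per 100 edges. In the step centred 40 kb to the right the values were 8.64 for the minus strand and 15.7 for the plus strand. At 40 kb from an edge, matches thus more often pointed away from it than towards it, and longer TADs had the same order, with 15.1 and 8.30 to the left and 8.30 and 15.3 to the right. In the window centred on the edge itself the order was weaker, with a plus-strand match at 16.9% and a minus-strand match at 14.0% of left edges of short TADs, and at 12.5% and 13.6% of right edges, so that the intervals overlapped at both. A plus-strand match at the left edge with a minus-strand match at the right edge was found in 9 of 521 short TADs (1.73%), and the opposite arrangement also in 9. Of 2242 longer TADs, 45 (2.01%) had the first arrangement and 34 (1.52%) the opposite. A match was found at 158 of the 547 short TAD edges that lay within 40 kb of an edge in the CTCF siRNA list, or 28.9% (25.2 to 32.8%), and at 126 of the 495 others, or 25.5% (21.8 to 29.5%). These intervals overlap, so a difference in this motif between retained and lost edges was not detectable among short TADs.

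**Figure D1:**
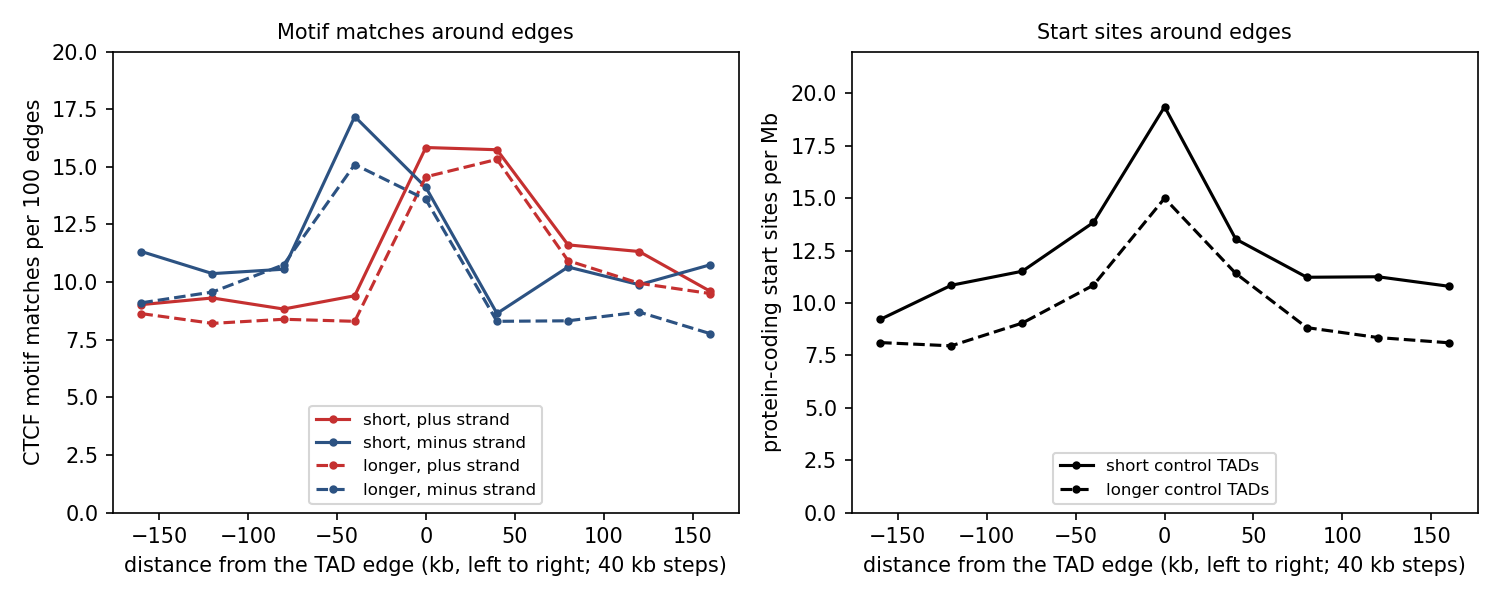
CTCF motif matches per 100 edges by strand (left) and protein-coding start sites per Mb (right) in 40 kb steps around the edges of short (solid) and longer (dashed) control TADs, with left and right edges pooled. Minus-strand matches of short TADs reached 17.2 per 100 edges at -40 kb and plus-strand matches 15.7 at 40 kb, and start sites reached 19.4 per Mb at the edge.

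The first question was what became of short TADs in the CTCF siRNA list. A short TAD was called kept where a CTCF siRNA TAD had both edges within 40 kb of its own, absorbed where a larger CTCF siRNA TAD enclosed it, with 40 kb allowed at each end, and edge moved where at least 50% of it lay in a CTCF siRNA TAD in another way. Of the 521 short TADs, 126 were kept, or 24.2% (Wilson 95% interval 20.7 to 28.0%), against 20.6% of all autosomal control TADs. A further 350 were absorbed, or 67.2% (63.0 to 71.1%), against 49.2% of all. An edge had moved for 33, or 6.33%, against 25.2% of all. Of the rest, 2 were divided between CTCF siRNA TADs and 10 lay mostly outside any, against 4.99% of all in these classes together. The allowance of 40 kb moved these shares, with 9.41% kept and 18.2% edge moved where edges had to coincide and 29.6% and 3.65% where 80 kb was allowed, while the absorbed share was 70.1% and 64.5%.

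Of the 2242 longer control TADs, 45.0% were absorbed (43.0 to 47.1%), 19.8% kept (18.2 to 21.5%) and 29.6% edge moved (27.7 to 31.5%). The absorbed share was 53.8% of TADs of 440 to 720 kb, 42.8% of those of 760 kb to under 1.5 Mb and 30.03% of those of 1.5 Mb or more. A short interval is more easily enclosed by a larger one, and size is what chose the members, so the definition itself favours a high absorbed share in short TADs and the order by size is a description only. Single edges did not follow this order. Of the edges of short TADs, 547 of 1042 or 52.5% (49.5 to 55.5%) lay within 40 kb of a CTCF siRNA edge, and of the edges of longer TADs 2391 of 4484 or 53.3% (51.9 to 54.8%). Short and longer TADs therefore did not differ detectably in the share of edges retained. An edge between a short and a longer TAD was counted in both shares, so the comparison cannot show a difference at such edges. Among the 350 absorbed short TADs, 253 (72.3%) had 1 edge retained and 97 (27.7%) had none.

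The size limit was what chose the members, and the values on either side of it were close. Of the 105 TADs of 400 kb, 23 were kept and 67 absorbed, and of the 118 TADs of 440 kb, 30 were kept and 67 absorbed. The 7 smallest members, of 160 kb, included 4 that were kept and 2 that were absorbed, and of the 30 members of 200 kb, 12 were kept and 18 absorbed. At 240 kb and above, the kept share lay between 19.8% and 27.5% at each size up to 400 kb.

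**Figure D2:**
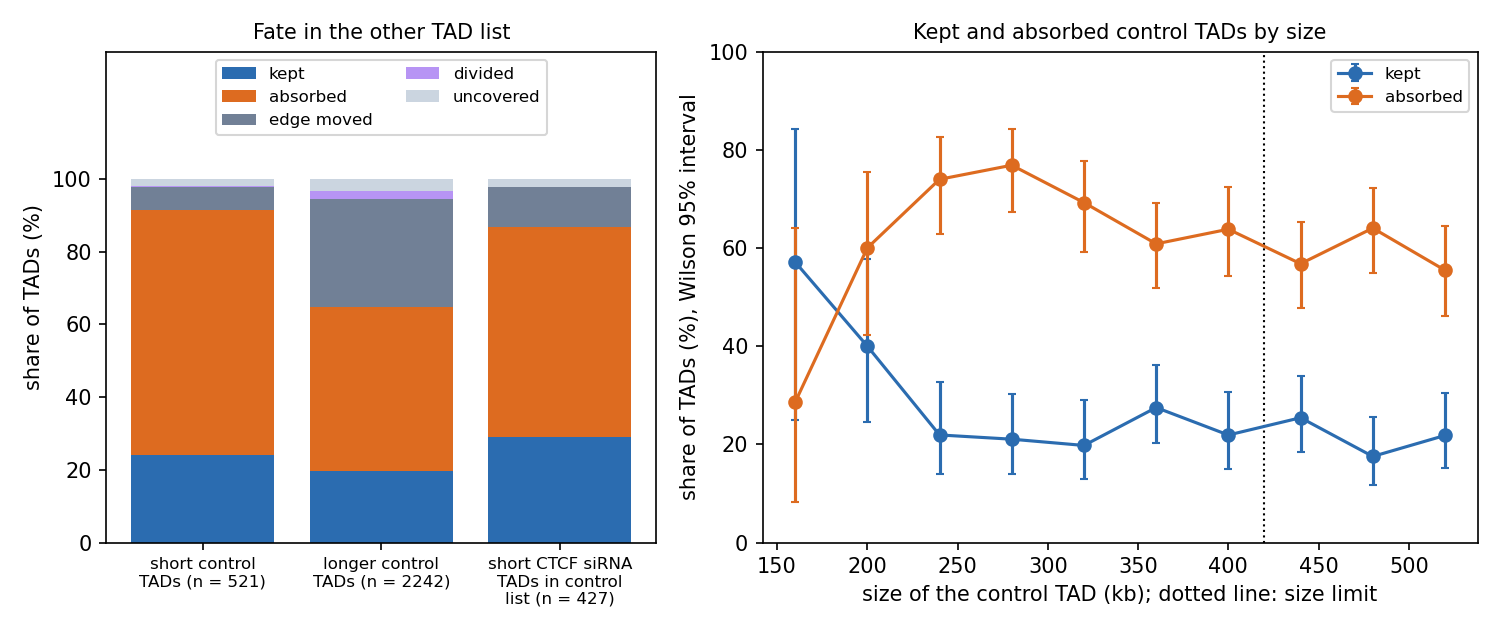
Left: share of TADs (%) by fate for short and longer control TADs in the CTCF siRNA list and for short CTCF siRNA TADs in the control list. Right: share of control TADs kept and absorbed by size in kb, with Wilson 95% intervals and the size limit as a dotted line; at 240 kb and above, the absorbed share stayed above the kept share at every size drawn.

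The same count was made from the other list. It held 427 short TADs among 2308 autosomal CTCF siRNA TADs, or 18.5% (17.0 to 20.1%), so that the share of short TADs was close to that in the control list. Of these 427, 124 were kept in the control list, or 29.0% (24.9 to 33.5%), and 247 lay inside a larger control TAD, or 57.8% (53.1 to 62.4%). Over all autosomal CTCF siRNA TADs, 24.7% were kept in the control list and 29.4% lay inside a larger control TAD. Most short TADs of either list were thus absent from the other list as TADs of their own, as were most TADs of all sizes. The absorbed share of longer CTCF siRNA TADs in the control list was 22.9%, so the same order by size was found in both directions. The CTCF siRNA list came from the deeper map, and the part of depth in these fates was not tested.

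The 350 absorbed short TADs lay in 316 CTCF siRNA TADs. These had a median size of 960 kb over the absorbed TADs (320 to 5200 kb), and the median ratio of the absorbing to the absorbed TAD was 3.18. In 227 cases (64.9%) at least 1 other control TAD lay in the same CTCF siRNA TAD. The absorbing TAD took in at least 50% of the left neighbour alone in 101 cases, of the right neighbour alone in 107 and of both in 20. In the other 122 it took in that much of no neighbour within 100 kb, and what it had grown into was not determined. The sides were thus joined about equally often.

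No CTCF siRNA TAD absorbed more than 2 short TADs, and 34 absorbed that many. Of these, the TAD at chr1:176300001-178460000 was tied with a TAD of chromosome 11 for the number of control TADs inside it, 4 in each. From left to right it joined the control TADs of PAPPA2 (a protease that cleaves insulin-like growth factor binding proteins), of ASTN1 and BRINP2 (neuronal proteins), of SEC16B and RASAL2, and of CLEC20A. The SEC16B and RASAL2 TAD, of 360 kb, had 569 contacts with its neighbours and 969 within it in the control map, and 2979 and 2467 in the CTCF siRNA map. The CLEC20A TAD, of 200 kb, had 574 and 327 in the control map and 1980 and 744 in the CTCF siRNA map. Relative to the contacts expected at the same separations, contacts with neighbours over contacts within were -1.02 in control and -0.00 in CTCF siRNA (log2) for the first of these TADs and -0.67 and -0.09 for the second, so that both were nearly level with their neighbours in the CTCF siRNA map. Balanced counts gave -0.86 and -0.09 for the first and -0.60 and -0.42 for the second, which was then less level.

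The next question was how contacts within short TADs and with their neighbours differed between the maps. Contacts were compared as observed over expected, with the expected value from the chromosome and the separation, at separations of 40 to 400 kb. In the control map, contacts within short TADs had a median log2 observed over expected of 0.44 (95% interval from order statistics 0.40 to 0.49) and contacts with neighbours -0.64 (-0.69 to -0.59). In the CTCF siRNA map the levels were 0.48 (0.34 to 0.58) and -0.18 (-0.26 to -0.02). Contacts with neighbours were thus closer to the expected value after CTCF siRNA. The median difference per TAD, CTCF siRNA minus control on the log2 scale, was 0.57 (0.51 to 0.63) for contacts with neighbours, and positive in 84.8% of the 441 TADs, beside a median of 0.49 (0.46 to 0.52) and 80.4% over all measured control TADs. For contacts within it was 0.10 (0.03 to 0.15) with the counts and -0.17 (-0.18 to -0.15) with balanced counts, so the direction for contacts within turned with the correction. Balanced counts kept the direction for contacts with neighbours, at 0.33 (0.30 to 0.36). Longer TADs had 0.48 (0.44 to 0.50) with the counts and 0.45 (0.43 to 0.47) with balanced counts. The difference was thus larger in short TADs with the counts and smaller with balanced counts.

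The neighbour-to-within ratio, the log2 difference between the 2 levels of a TAD, cancels what acts alike on both. Its median over short TADs was -1.03 (-1.10 to -0.99) in the control map and -0.50 (-0.54 to -0.45) in the CTCF siRNA map. The difference had a median of 0.51 (0.48 to 0.56), or 0.49 (0.46 to 0.53) with balanced counts, and was positive in 92.5% of short TADs, beside 93.9% of all measured control TADs. The ratio rose 1.5-fold or more in 187 of 441 short TADs, or 42.4% (Wilson 95% interval 37.9 to 47.1%), against 47.4% of all 2347 measured control TADs, and fell by as much in 1, against 0.256% of all. With bins cut 20 kb to the left of the deposited edges in place of 20 kb to the right, the median difference was 0.32. By that setting 102 short TADs rose 1.5-fold or more, and the same count was not made over all TADs. With edges 20 kb to the right, the share of short TADs that rose was thus not above that of all TADs. Longer TADs had a median difference of 0.57 (0.55 to 0.60), or 0.52 (0.50 to 0.54) with balanced counts. At the size limit, the median was 0.50 (0.44 to 0.62) for TADs of 400 kb and 0.47 (0.36 to 0.57) for TADs of 440 kb.

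The members were chosen by their size in a TAD list called on the control map, so the same measure was taken for TADs of the other list. The 350 measured short TADs of the CTCF siRNA list had a median neighbour-to-within ratio of -0.80 in the control map (-0.86 to -0.73) and -0.81 in the CTCF siRNA map (-0.85 to -0.76). Their median difference was -0.02 (-0.07 to 0.02), or -0.01 (-0.05 to 0.04) with balanced counts. Their contacts with neighbours alone were higher after CTCF siRNA by 0.36 (0.30 to 0.40) with the counts, as were their contacts within by 0.37 (0.31 to 0.41), but differed by -0.03 (-0.05 to 0.01) and -0.02 (-0.03 to -0.00) with balanced counts. Among these 350, the 207 measured TADs that lay inside a larger control TAD differed the other way, with a median of -0.10 (-0.14 to -0.04) of the ratio, and the 102 measured TADs that were kept had a median of 0.16 (0.06 to 0.23). Over the whole set, a higher median ratio after CTCF siRNA was thus measured for short TADs of the control list and not for those of the CTCF siRNA list, and the part of the choice of list in the difference was not tested. With each list in its own map, short TADs stood apart from their neighbours less in CTCF siRNA (-0.81) than in control (-1.03), and with balanced counts the values were -0.71 and -1.04. Longer TADs had the same order, with -0.74 and -1.07, or -0.69 and -1.01 with balanced counts. The lists were called on maps of unlike depth, and the part of depth in the lists and in these levels was not tested.

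**Figure D3:**
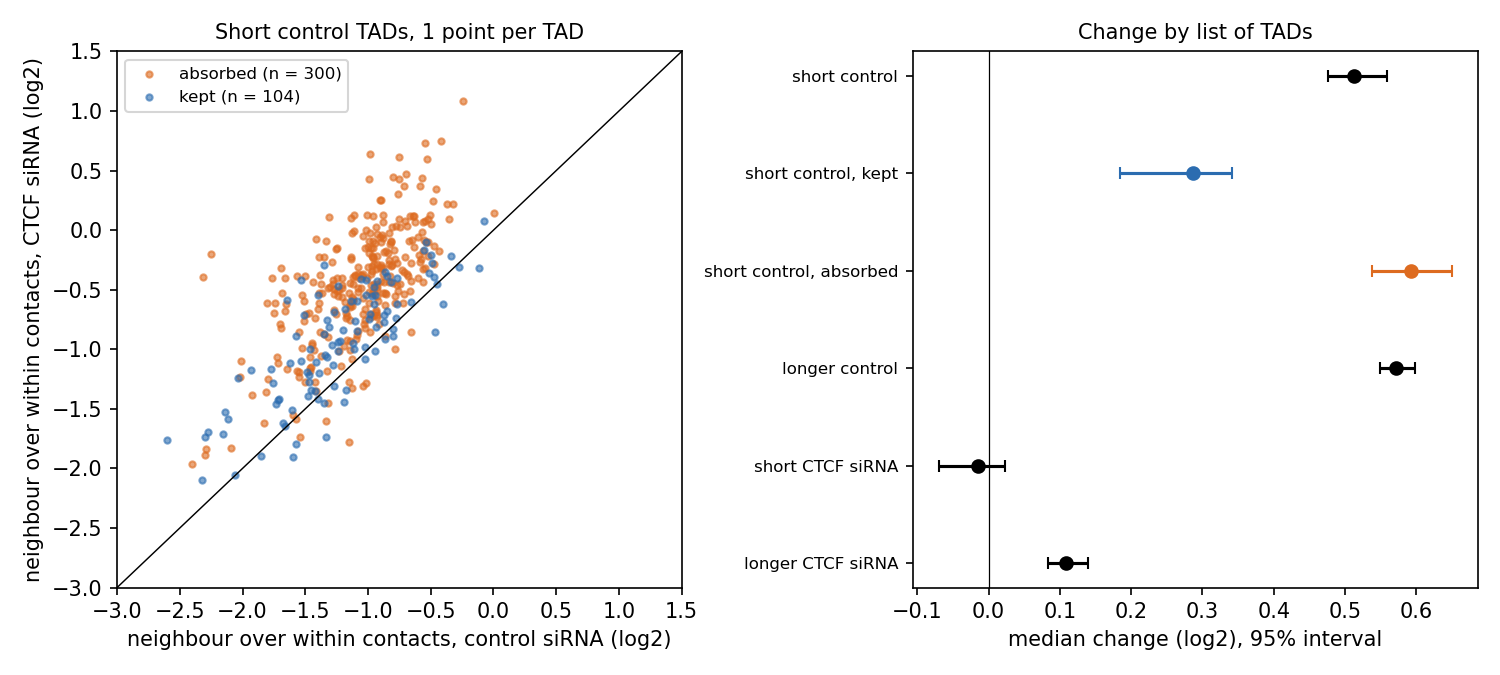
Left: neighbour-to-within ratio (log2) of each measured short control TAD in the control map (x axis) and the CTCF siRNA map (y axis), for 300 absorbed and 104 kept TADs, with the line of equal values. Right: median difference (CTCF siRNA minus control, log2) with its 95% interval for TADs of either list, 0.51 for short control TADs and -0.02 for short CTCF siRNA TADs.

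Kept and absorbed short TADs differed in contacts as well, though fate and contacts come from the same maps and this is a description only. The 104 measured kept TADs had a median ratio of -1.24 in the control map (-1.34 to -1.09) and -0.89 in the CTCF siRNA map (-1.02 to -0.75), and the 300 absorbed TADs -0.999 (-1.05 to -0.96) and -0.43 (-0.48 to -0.38). Kept TADs stood farther apart from their neighbours in both maps, although with balanced counts the control values, -1.12 (-1.24 to -0.99) and -1.02 (-1.05 to -0.98), had overlapping intervals. The median difference was 0.29 (0.18 to 0.34) in kept and 0.59 (0.54 to 0.65) in absorbed TADs, and 0.32 (0.25 to 0.39) and 0.54 (0.51 to 0.59) with balanced counts. A rise of 1.5-fold or more was found in 14 of 104 kept TADs (13.5%, 8.19 to 21.3%) and 152 of 300 absorbed TADs (50.7%, 45.0 to 56.3%), beside the 47.4% of all. Of short TADs with both, 1 or none of their edges retained, the median differences were 0.29, 0.54 and 0.70, or 0.32, 0.51 and 0.72 with balanced counts, so that the difference was larger where fewer edges were found again.

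Where an absorbed TAD was joined to the neighbour on a single side, the sides could be compared within a TAD. In 130 such TADs with both sides measured, contacts with the joined neighbour differed by a median of 0.59 on the log2 scale (0.37 to 0.72) and contacts with the other neighbour by 0.21 (0.11 to 0.33). The difference was larger on the joined side in 93 of 130 (71.5%, Wilson 95% interval 63.3 to 78.6%). The joined side was set by TADs called on the same CTCF siRNA map, so a larger difference there follows in part from the definition and is a description only. With balanced counts the medians were 0.44 (0.40 to 0.50) and 0.11 (0.05 to 0.21). The joined side also had the higher level in the control map, with a median log2 observed over expected of -0.51 (-0.63 to -0.39) against -0.74 (-0.86 to -0.66), and with balanced counts these levels were -0.54 (-0.60 to -0.46) and -0.69 (-0.75 to -0.62). These control levels were compared by their medians only, and the number of TADs with the higher control level on the joined side was not counted.

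In mean maps of the members, stretched to a common length, absorbed TADs had their highest field in the control map at the corner where the 2 ends of a TAD meet, and kept TADs next to that corner. Contacts between the first and the last 80 kb of short TADs, a measure chosen after the mean maps were seen, were 2.42 times the expected value in the control map and 1.36 times elsewhere within, a ratio of 1.78. In the CTCF siRNA map the values were 2.02 and 1.49, a ratio of 1.35. The ratio was thus 0.759 of that in control, or 0.739 with balanced counts, and it was lower in both absorbed (0.735) and kept TADs (0.829). For short TADs of the CTCF siRNA list the ratio was 1.36 in control and 1.32 in CTCF siRNA, 0.971 of that in control, so the ratios in the 2 maps were close for these TADs.

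**Figure D4:**
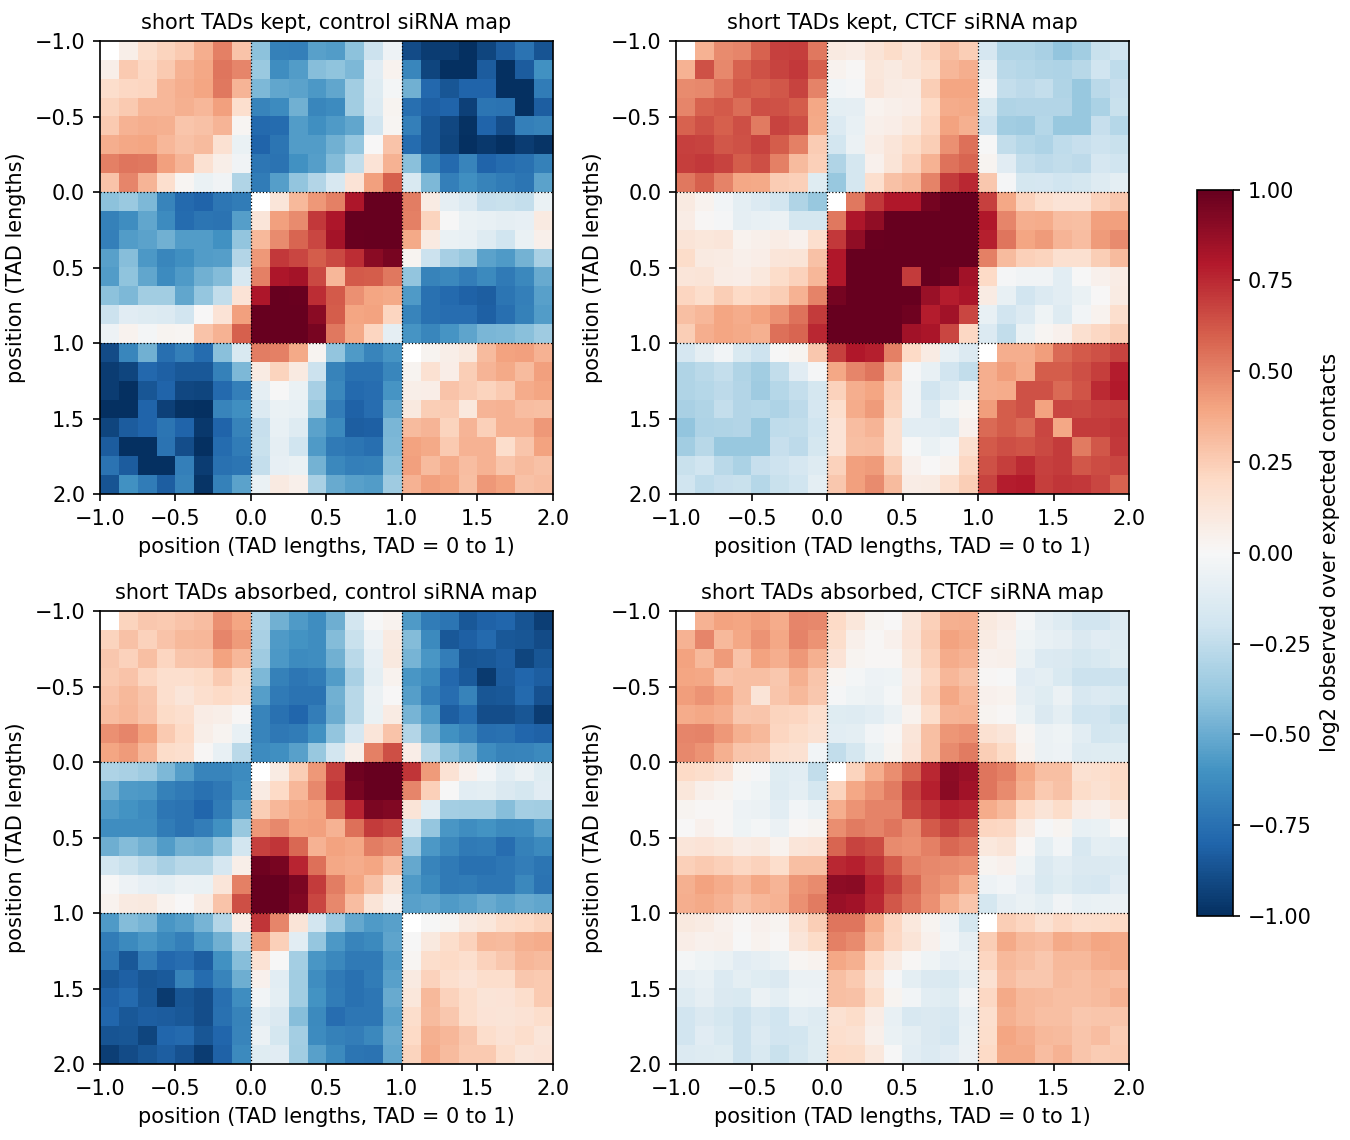
Mean log2 observed over expected contacts around measured short control TADs, kept (top) and absorbed (bottom), in the control map (left) and the CTCF siRNA map (right). Both axes give position in TAD lengths, and the TAD runs from 0 to 1 between the dotted lines. The blue fields beside the TAD, which are contacts with the flanks, are paler or turn red in the CTCF siRNA map. In the control map the corner where both ends meet is among the darkest fields of absorbed and kept TADs. Fields beyond the end of the colour scale look alike.

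Base composition moved with these results. Median GC content was 43.1% in short TADs (42.6 to 43.8%) and 40.6% in longer ones (40.5 to 40.9%). With the short TADs split into 3 groups of like number by GC content, from lowest to highest, 8.62%, 27.7% and 36.2% were kept and 82.8%, 62.4% and 56.3% were absorbed. Contacts were measured in 160 of 174, 151 of 173 and 130 of 174 TADs of these groups, so fewer GC-rich TADs entered the contact medians. The median difference of the neighbour-to-within ratio was 0.73, 0.46 and 0.34 in the same order, and 0.64, 0.45 and 0.39 with balanced counts. The median difference of contacts within was -0.61, 0.25 and 0.40 with the counts and -0.21, -0.13 and -0.15 with balanced counts, so its sign turned in the middle and highest groups. Contacts with neighbours differed by a median of 0.12, 0.66 and 0.75 with the counts and 0.40, 0.33 and 0.22 with balanced counts. Their order by GC content thus turned with the correction. AT-rich short TADs were more often absorbed and had the larger differences of the neighbour-to-within ratio. Within the groups, the median difference of absorbed against kept TADs was 0.73 (0.66 to 0.81) against 0.49 (0.33 to 0.86) in the lowest, with only 12 measured kept TADs, 0.54 (0.43 to 0.60) against 0.26 (0.15 to 0.48) in the middle and 0.44 (0.34 to 0.56) against 0.22 (0.11 to 0.29) in the highest. Balanced counts gave 0.62 against 0.53, 0.49 against 0.33 and 0.48 against 0.24. The intervals overlapped in the lowest and middle groups on both scales and stood apart only in the highest group. An overlap does not show that kept and absorbed TADs were alike, and the order of the medians was the same in all 3 groups. Longer TADs in the same GC ranges were absorbed in 51.3%, 40.1% and 34.8%. The part of GC content in the fates was not tested further.

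Short TADs were dense in genes. Protein-coding start sites in GENCODE v44 numbered 12.1 per Mb of short TAD (exact Poisson 95% interval 11.6 to 12.7) and 6.35 per Mb of longer TAD (6.25 to 6.45). The density was 10.6 at 440 to 720 kb, 6.91 at 760 kb to under 1.5 Mb and 2.87 at 1.5 Mb or more, so it was lower in each larger class. Short TADs made up 6.64% of the length of all autosomal control TADs and held 2006 of the 16794 start sites in a TAD, or 11.9%. Of all 19222 autosomal start sites, these were 10.4%. A median short TAD had 3 genes, and 24 of the 521 had none. Kept short TADs had 14.4 start sites per Mb (13.2 to 15.6), absorbed ones 10.8 (10.2 to 11.5) and those with a moved edge 17.6 (15.3 to 20.2). Start sites peaked at the edges themselves, with 19.4 per Mb in the 40 kb around an edge of a short TAD and 15.0 around an edge of a longer one. Short TADs made up between 7.14% of the control TADs of chromosome 13 and 29.7% of those of chromosome 21.

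Gene families differed in how many of their members started in a short TAD, beside the 10.4% of all protein-coding genes. Of 413 olfactory receptor genes, which encode odorant receptors and lie in tandem clusters, 51 (12.3%) did, but these lay in only 8 TADs, of which 6 were absorbed and 2 kept, beside the 67.2% of short TADs that were absorbed. Of 496 zinc finger genes named ZNF, 13 did, or 2.62% (Wilson 95% interval 1.54 to 4.43%). Of 73 genes of cytosolic ribosomal proteins 8 did (10.96%, 5.66 to 20.2%), in 3 kept, 4 absorbed and 1 edge-moved TAD. Of other clustered families, none of 63 histone genes, 55 keratin genes or 53 clustered protocadherin genes started in a short TAD, which by the Wilson interval allows shares of up to 5.75%, 6.53% and 6.76%. Of 39 HOX genes 1 did (2.56%, 0.454 to 13.2%), an interval that includes the share of all genes. Genes of a cluster share a few TADs and are not independent, so these intervals are too narrow.

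Of 34 autosomal androgen-regulated genes, 4 started in short TADs (11.8%, 4.67 to 26.6%), close to the 10.4% of all genes. The 3 described here lay in absorbed TADs, as did 67.2% of short TADs. SLC45A3, which encodes the prostate membrane protein prostein, lay in the TAD chr1:205260001-205660000, whose contacts with neighbours numbered 552 in control and 4434 in CTCF siRNA, beside 1170 and 6638 within. Its neighbour-to-within ratio was -0.93 in control and -0.46 in CTCF siRNA, a difference of 0.48 ± 0.08 (log2, counting error), or 0.60 with balanced counts. HPGD, a prostaglandin-degrading enzyme, lay in the TAD chr4:175220001-175540000 with ratios of -1.01 and -0.40, a difference of 0.61 ± 0.17, or 0.78 with balanced counts. NCAPD3, a subunit of the condensin II complex that compacts chromosomes, lay in chr11:133740001-134100000 and had the largest difference of these, 1.097 ± 0.10, from -1.25 to -0.15, or 1.11 with balanced counts. These 3 TADs were thus less separated from their neighbours in the CTCF siRNA map, as were 92.5% of short TADs and 93.9% of all.

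Among 16 autosomal prostate transcription factors, 3 started in short TADs (18.8%, 6.59 to 43.0%), an interval that includes the 10.4% of all genes. Of these 3, 2 are described. HOXB13, a homeobox factor that partners the androgen receptor, lay in chr17:46700001-47100000, where an edge had moved, and its ratio was -0.81 in control and -0.87 in CTCF siRNA. CREB3L4, a membrane-bound transcription factor of the prostate, lay in the kept TAD chr1:153620001-153980000 with ratios of -0.27 and -0.31. The differences of these TADs, -0.05 ± 0.10 and -0.03 ± 0.11, were within the counting error, and with balanced counts they were -0.10 and -0.23. Of 18 autosomal genes of cohesin, CTCF and partners, 2 started in short TADs (11.1%, 3.10 to 32.8%), close to the 10.4% of all genes, and both TADs were kept, beside 24.2% of short TADs. SMC3, a core subunit of the cohesin ring, lay in chr10:112060001-112340000, with 174 neighbour contacts in control and 967 in CTCF siRNA against 569 and 3810 within, and a difference of -0.31 ± 0.14, or -0.08 with balanced counts. LDB1, a factor that bridges enhancers and promoters, lay in chr10:103860001-104220000, with ratios of -1.94 and -1.17, a difference of 0.76 ± 0.15, or 0.64 with balanced counts.

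The named short TADs were those at the ends of the range of differences with at least 100 neighbour contacts expected in control, so their differences are large or small by choice. Among absorbed TADs the largest was at chr11:86620001-87020000, with FZD4, a receptor for Wnt ligands and norrin, and TMEM135. Its contacts with the left neighbour, the single one within reach, numbered 60 against 204 expected in control and 615 against 940 expected in CTCF siRNA, while contacts within were 1.40 and 0.751 times the expected value. The difference was 2.05 ± 0.20, or 1.31 with balanced counts, and the absorbing TAD spanned 2760 kb. Next was chr4:156300001-156700000, with GUCY1A1 and GUCY1B1, which encode the subunits of the nitric oxide receptor soluble guanylate cyclase. It had 75 neighbour contacts against 275 expected in control and 638 against 805 in CTCF siRNA, a difference of 1.92 ± 0.19, or 1.72 with balanced counts. It was absorbed by a TAD of 600 kb that reached beyond it on both sides without taking in a neighbour.

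The other absorbed TADs named by that rule lay on chromosome 1. The TAD chr1:231460001-231740000 held EGLN1, the oxygen-sensing hydroxylase that marks hypoxia-inducible factor for degradation, and TSNAX, and joined its right neighbour. Its neighbour contacts were 0.650 of expected in control and 1.08 in CTCF siRNA, and its contacts within 1.29 and 0.695. With the counts, the order of the 2 quantities was thus reversed between the maps. It was not with balanced counts, which gave a neighbour-to-within ratio of -0.05 in the CTCF siRNA map. The TAD chr1:200500001-200820000 held KIF14, a kinesin of cell division, DDX59, an RNA helicase, and CAMSAP2, which binds microtubule minus ends, and also joined its right neighbour. Its contacts within were 0.998 of expected in control and 0.472 in CTCF siRNA, and its neighbour contacts 0.502 and 0.635. This order in CTCF siRNA was also found with the counts only, as the balanced ratio was -0.51. The differences in the neighbour-to-within ratio were 1.63 ± 0.12 and 1.42 ± 0.11, and with balanced counts 1.40 and 0.78. All 4 of these TADs had a GC content between 37.3% and 39.8%, below the median of short TADs.

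Among kept TADs, the largest differences were at chr15:94660001-94860000, a TAD of 200 kb with MCTP2, and at chr1:85380001-85740000, with BCL10, an adaptor of immune signalling, MCOLN2 and MCOLN3, which encode lysosomal cation channels, and 3 further genes. The MCTP2 TAD had 145 neighbour contacts against 301 expected in control and 811 against 1457 in CTCF siRNA, and contacts within of 1.39 and 0.742 times the expected value. Its edges were found again at the same positions although the difference was 1.119 ± 0.16, or 1.08 with balanced counts. The BCL10 TAD had a difference of 1.06 ± 0.10, the same with balanced counts, and its right edge lay 40 kb farther left in the CTCF siRNA list.

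A fall of 1.5-fold or more was found in a single short TAD, chr9:125220001-125620000, which holds 14 olfactory receptor genes and PDCL. Its contacts with the right neighbour numbered 144 against 270 expected in control and 410 against 1249 in CTCF siRNA, and its contacts within were 1.19 and 1.122 times the expected value. The difference was -0.62 ± 0.15, or -0.42 with balanced counts, which is under 1.5-fold, and the TAD was nevertheless absorbed, by a TAD of 760 kb that reached to its left, where it had no neighbour. The next lower differences were smaller than this limit. They were -0.40 ± 0.12 in the kept TAD chr17:44740001-45100000 with the Wnt ligand genes WNT3 and WNT9B, -0.39 ± 0.09 in the kept TAD chr9:133980001-134380000 with the nucleoporin gene NUP214, and -0.34 ± 0.11 in chr14:67820001-68180000, where an edge had moved, with the retinol dehydrogenase genes RDH11 and RDH12. With balanced counts these differences were -0.08, -0.49 and 0.29, so the sign turned for the TAD of RDH11 and RDH12. These 3 TADs had a GC content between 45.5% and 48.5%. The TAD with the largest fall, that of the olfactory receptor genes and PDCL, had 40.3%, below the median of 43.1% in short TADs.

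The kept TADs whose ratio differed least were chr21:43260001-43540000, chr2:73100001-73460000 and chr10:75500001-75860000. The first holds the zinc finger genes PRDM15 and ZBTB21 and had more contacts with its neighbours than expected in both maps, 1.43 times in control and 2.08 times in CTCF siRNA, beside 1.95 and 2.85 times within. The second holds EMX1, a homeobox gene, and CCT7, a subunit of a chaperonin, and had ratios of -2.06 and -2.05. The third holds PLAU, the urokinase gene, and VCL, the gene of the adhesion protein vinculin, and had ratios of -1.67 and -1.64. Contacts within and with neighbours were higher by like amounts in these TADs, between 0.40 and 0.55 on the log2 scale, and the largest difference of the ratio was 0.021. With balanced counts the ratio differed by 0.11, 0.42 and 0.14, so the EMX1 TAD was no longer among those that differed little.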

How the data were processed

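Hi-C of LNCaP cells (2 control siRNA and 4 CTCF siRNA libraries, grouped by the siRNA in their labels) was used as deposited. The authors used HiCUP with Bowtie 1.1.0 (genome hg19) and Picard 1.121, versions as in the submitters' processing notes, pooled the libraries of a condition into 40 kb bins, and called TADs by a hidden Markov model of the directionality index. The deposited contact values are read-pair counts times a factor per bin at positions 9400001 to 48120000, and counts were recovered by division (100% of tested values fell on a whole count with a tolerance of 0.01 plus 0.05%, while random values would do so in 2.47% of control and 2.76% of CTCF siRNA pairs). At 121 positions there no chromosome had contacts. Expected counts came from each chromosome and separation over bins with at least 10% of the median cis count in both maps. A TAD was measured where at least 50% of bin pairs were usable and 20 contacts were expected within and with neighbours (adjoining control TADs at most 100 kb away) in each map. Medians carry order-statistic intervals, shares Wilson intervals and densities exact Poisson intervals. TADs, genes and edges are positions of 1 pooled map, not replicates.

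Members and gene lists were chosen with earlier results of these data known. Named TADs were the 4 absorbed and 2 kept with the largest rise, the 4 with the largest fall and the 3 kept with the smallest difference of the neighbour-to-within ratio, with at least 100 neighbour contacts expected, the CTCF siRNA TAD absorbing most short TADs, and listed genes. Balancing scaled cis counts iteratively to equal bin totals, and its values by GC group, edge, side and named TAD were added after the data were seen. Positions of bins, genes and motif windows were moved 20 kb to the right of the deposited edges after the maps were seen. Genes came from GENCODE v44 lifted to GRCh37 and sequence from GRCh37, whose chromosome lengths match the contact bins. Fates and contact measures were tested on simulated maps. Python 3.11.15, NumPy 2.4.6, SciPy 1.17.1 and pandas 2.3.3 were used. A gene of the lists is not reported here.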

Additional observations from a re-analysis of the deposited data

How the results depend on the processing

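With 1 pooled map per condition, leaving out a library was not possible. No paired analysis was possible because same-numbered libraries had been pooled by condition before deposit. The median difference of contacts within short TADs turned its sign, from 0.10 to -0.17 (-0.18 to -0.15) with iteratively balanced counts. At separations of 2 bins and more it was -0.060 (-0.13 to 0.03), an interval that holds both signs. It was 0.17 with the expected value over all autosomes. The cause was not tested. Of 74 alternatives, 50 left a value within its interval (or, for counts, within 1.5 times). Balanced counts gave 0.33 for contacts with neighbours and 0.52 for the neighbour-to-within ratio of longer TADs. Contacts with neighbours were 0.49 at separations up to 800 kb and 0.45 with flanks as wide as the TAD. The neighbour-to-within ratio of short TADs was 0.62 at separations of 2 bins and more and 0.44 with such flanks.

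An alternative added after the data were seen cut the bins 20 kb to the left of the deposited edges in place of 20 kb to the right. The differences were then 0.37 for contacts with neighbours, 0.32 for the ratio of short TADs and 0.38 for that of longer TADs. In place of 187, 102 short TADs rose 1.5-fold or more, and the same count was not made over all TADs by this setting. The differences kept their direction. With coinciding edges required, 9.41% of short and 9.14% of longer TADs were kept and 18.2% of short TADs had an edge moved, and with 80 kb allowed these were 29.6%, 24.4% and 3.65%. With a size limit of 200 kb, 43.2% of 37 TADs were kept and 54.1% absorbed, and at 300 kb 71.7% were absorbed. Motif matches lay at 43.7% of short TAD edges in 80 kb windows (27.3% of all windows) and at 14.1% with the GGGGC form alone (6.73%). Single TADs are limited by the control depth, as their counting errors show. They also depend on the scale, as balanced counts moved some of them by more than their counting error.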
